A study of Mus musculus with 18 samples.

Results

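Interferon-stimulated genes were followed in thymic epithelial cells (TEC) of mice labelled as Kat7 knockout (KO) and of wildtype (WT) mice. The set held 46 genes named by symbol, from transcription factors and RNA sensors to antiviral effectors, of 27179 genes in the count tables. Every one of the 46 symbols matched 1 gene, and all 46 passed the filter on low counts that left 19364 genes for testing. The rule used symbols only, and the list was drawn up with earlier results of these data known.

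The 6 groups were KO mTEChi, WT mTEChi, KO mTEClo, WT mTEClo, KO cTEC and WT cTEC, with 3 libraries each. mTEC are medullary TEC, sorted as high (hi) or low (lo) for MHC class II on their surface, and cTEC are cortical TEC. All mice were C57BL/6, and each library came from a pool of mice: pools 4 to 6 were KO and pools 1 to 3 WT, each pool giving 1 library of every subset. Values of 3 libraries are given in the order of the pool numbers. The deleted stretch of Kat7, the cells that lost it, the age of the mice and the sort dates are not given in the sources used here. A difference of batch between KO and WT pools and the genotype thus cannot be told apart. In such bulk libraries, fewer cells of a type and less RNA per cell cannot be told apart either.

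Interferons are secreted when cells sense viral or misplaced nucleic acid, and they act through receptors that carry JAK kinases. Type I interferons (the alpha and beta families) and type III interferons (lambda) activate a complex that holds STAT2 and IRF9 and binds the interferon-stimulated response element in the promoters of target genes. Type II interferon (gamma) acts through its own receptor and a different promoter element. In the thymus, mature medullary cells are known to make interferons without infection, and developing T cells, other TEC and dendritic cells can respond to them.

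Kat7, which encodes a histone acetyltransferase of the MYST family, was at 0.765 to 4.16 CPM in the 9 KO libraries and at 38.6 to 83.4 CPM in the 9 WT libraries. CPM is counts scaled to a common, TMM-adjusted library total. Library totals ran from 3554089 to 20054360 counts. Marker sums set mTEChi and cTEC apart from the other subsets. The 7 mature mTEC markers summed to 2195 to 2292 CPM in KO mTEChi and 2937 to 3153 CPM in WT mTEChi. In every library of the other groups they summed to 686 CPM or less. The 9 cTEC markers summed to 8926 to 13278 CPM in KO cTEC and 4161 to 7029 CPM in WT cTEC, and to 2809.8 CPM or less in the mTEC libraries. For mTEClo the picture was less sharp. The sums of the 6 immature mTEC markers were highest in mTEClo within each genotype, at 3378 to 3779 CPM in KO and 4808 to 5120.3 CPM in WT. The KO mTEClo sums overlapped those of WT cTEC, at 3642 to 4007 CPM.

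Per kilobase of the gene length in the files, Ifitm3 was the most abundant of the 46 in each of the 6 groups. It encodes a membrane protein that blocks the entry of viruses. Its mean level ran from 2697 CPM per kb in WT mTEChi to 7402 CPM per kb in KO cTEC. The next were far lower: Usp18 was second in KO mTEChi at 275 and in WT mTEChi at 359.9 CPM per kb, Bst2 was second in KO mTEClo at 219 and in KO cTEC at 293, and Isg15 was second in WT mTEClo at 327 and in WT cTEC at 336. The lowest of the 46 was Oas2 in both mTEChi groups, at 1.87 CPM per kb in KO and 1.55 in WT.

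**Figure D1:**
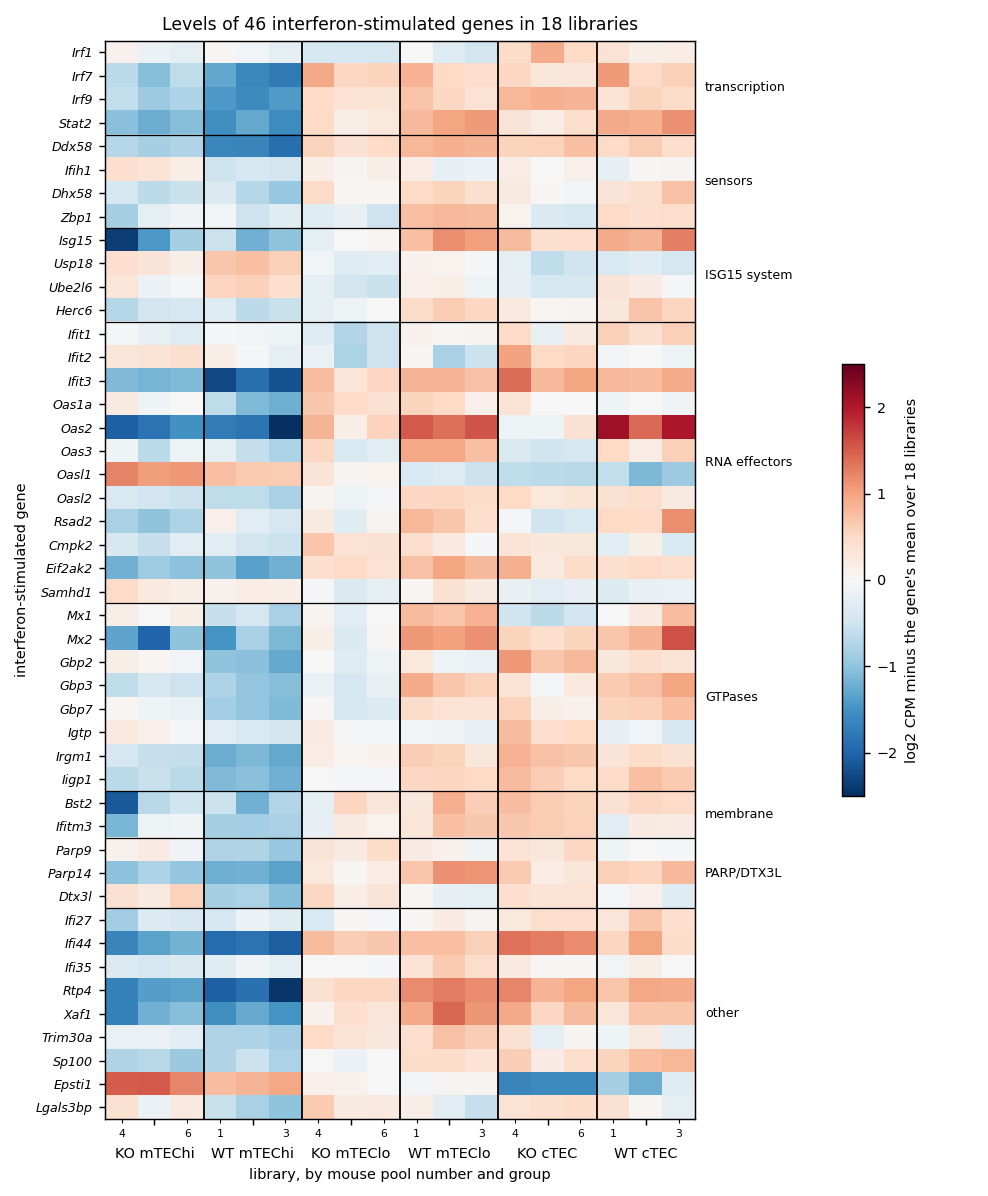
Level of each of the 46 genes (rows, ordered by role) in each of the 18 libraries (columns, by group and pool), as log2 CPM minus the gene's own mean over the 18 libraries. The WT mTEChi columns are the bluest for most genes, and Oasl1 and Epsti1 run the other way.

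Averaged over the 46 genes, the log2 CPM was 6.31, 6.33 and 6.40 in KO mTEChi, against 6.10, 6.04 and 5.90 in WT mTEChi. It was 6.97, 6.79 and 6.85 in KO mTEClo, against 7.27, 7.27 and 7.16 in WT mTEClo. It was 7.17, 6.95 and 7.02 in KO cTEC, against 7.08, 7.13 and 7.17 in WT cTEC. The KO libraries thus lay above all WT libraries in mTEChi and below all WT libraries in mTEClo, and the 2 genotypes overlapped in cTEC. No test was made of these means.

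**Figure D2:**
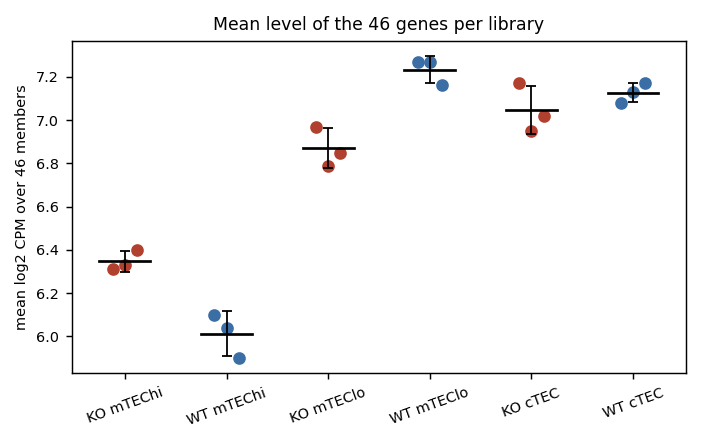
Mean log2 CPM over the 46 interferon-stimulated genes in each library (points), with the mean and SD of the 3 libraries of each group (lines and bars). KO mTEChi libraries sit at 6.31 to 6.40, above WT mTEChi at 5.90 to 6.10, while KO mTEClo libraries sit at 6.79 to 6.97, below WT mTEClo at 7.16 to 7.27.

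The subset contrasts within WT gave the starting point. In WT mTEChi, 37 of the 46 genes were lower and 4 were higher than in WT mTEClo, where 26.7% of all genes tested were lower and 32.6% higher. A call here means an adjusted p below 0.05 in edgeR's quasi-likelihood test, adjusted over all genes tested. The median log2 fold change of the 46 was -1.28, with the middle of the list between -1.99 and -0.61 (quartiles), and that of all genes was 0.08. For 38 of the 46, every WT mTEChi library lay below every WT mTEClo library. How many of all genes separate in this way was not counted, here or in the KO comparisons below.

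Rtp4, which encodes an interferon-induced chaperone of membrane receptors, was at 40.4, 46 and 30.9 CPM in WT mTEChi, against 381, 405 and 380.4 CPM in WT mTEClo (log2 fold change -3.31 ± 0.15, adjusted p = 1.63e-12; ± is the SE of the fold change). Ddx58, which encodes the RNA sensor RIG-I, had 34.9, 34.5 and 29 CPM in WT mTEChi, against 192, 199 and 195 CPM in WT mTEClo (log2 fold change -2.58 ± 0.11, adjusted p = 6.5e-13). Stat2, a subunit of the factor that binds the response element, had 46, 55.1 and 44.6 CPM in WT mTEChi, against 234, 263 and 279 CPM in WT mTEClo (log2 fold change -2.41 ± 0.13, adjusted p = 1.03e-11). In all 3 genes each mTEChi library was several-fold below the mTEClo libraries. The 4 genes higher in WT mTEChi were Oasl1, Epsti1, Usp18 and Ube2l6. Oasl1, which in mouse restrains translation of the Irf7 message, had 139.8, 131 and 128 CPM in WT mTEChi, against 63.8, 65.8 and 56.7 CPM in WT mTEClo (log2 fold change 1.10 ± 0.12, adjusted p = 2.06e-07). Usp18, which removes ISG15 from proteins and dampens signalling at the type I receptor, had 642, 669 and 601 CPM in WT mTEChi, against 427, 421 and 389 CPM in WT mTEClo (log2 fold change 0.63 ± 0.11, adjusted p = 8.55e-05). Epsti1, an interferon-induced gene named for epithelial and stromal interaction, had 49.8, 53 and 57.5 CPM in WT mTEChi, against 28, 30.8 and 30.6 CPM in WT mTEClo (log2 fold change 0.85 ± 0.17, adjusted p = 0.000226). Among the 37 lower genes, 2 calls did not hold in every alternative, such as leaving out the library of 1 mouse pool (adjusted p in brackets). That of Ifi27 was lost under RLE scaling (0.0608), in DESeq2 (0.052), without WT mTEChi pools 1 (0.102) and 3 (0.0664), and without WT mTEClo pool 2 (0.0901). For Ifi27 adjusted p ran from 0.000982 to 0.102 over 12 alternatives. That of Lgals3bp was lost without WT mTEChi pool 3 (0.0737), and without WT mTEClo pool 1 (0.1). For Lgals3bp adjusted p ran from 0.000539 to 0.1 over 12 alternatives.

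Set against WT cTEC, WT mTEChi again had 37 of the 46 genes lower and 5 higher, where 28.5% of all genes were lower and 35.9% higher (median of the 46 -1.01). The 5 higher genes were 3 with no filter on low counts. WT mTEClo and WT cTEC were closer to each other. In WT mTEClo, 10 genes were higher than in WT cTEC and 2, Irf1 and Ifit1, were lower, beside 13% and 14.4% of all genes (median 0.05). The 10 higher genes were 6 without the WT mTEClo library of pool 2. The 2 lower genes were 4 without the WT mTEClo or the WT cTEC library of pool 1, 1 without the WT mTEClo library of pool 2 or of pool 3, and 4 or 5 under 5 other settings. By group mean in WT, 39 of the 46 genes were lowest in mTEChi, 22 were highest in mTEClo and 19 were highest in cTEC. These ranks were not tested and not counted over all genes, and 34 of the 46 were not called between WT mTEClo and WT cTEC.

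In KO the same gap between the medullary fractions was narrower. KO mTEChi had 26 of the 46 genes lower and 8 higher than KO mTEClo, where 22.4% of all genes were lower and 23% higher, and the median log2 fold change was -0.43, with quartiles of -1.18 and 0.14. The count of higher genes was 5 without the KO mTEChi library of pool 4. Against KO cTEC, KO mTEChi had 32 genes lower and 6 higher, beside 28.4% and 34% of all genes (median -0.71). KO mTEClo had 18 genes lower and 4 higher than KO cTEC, beside 15.8% and 21.2% of all genes (median -0.19). The 4 were 2 without the KO mTEClo library of pool 4 and 2 without the KO cTEC library of pool 5. In KO, 29 of the 46 genes were highest in cTEC by group mean and 9 in mTEClo, ranks that again were not tested or counted over all genes. Epsti1 had the largest gap between subsets in KO, with 83.8, 85.2 and 68.6 CPM in KO mTEChi, against 9.37, 9.71 and 9.73 CPM in KO cTEC (log2 fold change 3.04 ± 0.17), and Ifi44 ran the other way, with 38.2, 47.5 and 52.7 CPM in KO mTEChi, against 307, 288 and 271 CPM in KO cTEC (-2.65 ± 0.14).

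**Figure D3:**
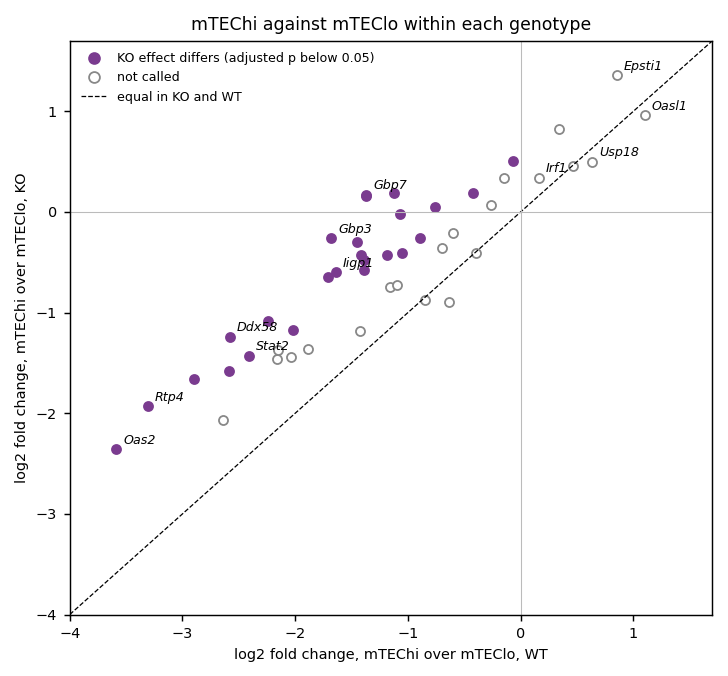
Log2 fold change of mTEChi over mTEClo for each of the 46 genes, in WT (x axis) and in KO (y axis), with filled points for genes whose KO effect differed between the 2 fractions at an adjusted p below 0.05. Most points lie above the line of equality, the side on which the value in KO exceeds that in WT; Gbp7 moved to 0.17 in KO, against -1.37 in WT.

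In mTEChi, the fraction that holds the mature Aire-expressing cells, 22 of the 46 genes were higher and 3 were lower in KO than in WT. Among all genes tested, 17.1% were higher and 19.3% lower. The median log2 fold change of the 46 was 0.36, against -0.11 for all genes. All KO libraries lay above all WT libraries for 25 genes, below them for 4, and overlapped for 17. No such count was made over all genes. The 3 lower calls were 1 without the KO mTEChi library of pool 5.

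By role, 3 of the 4 transcription factors were higher in KO mTEChi. Irf7, the factor that amplifies type I interferon genes, had 133, 99.7 and 135 CPM in KO mTEChi, against 85, 68.3 and 61.7 CPM in WT mTEChi (log2 fold change 0.78 ± 0.18, adjusted p = 0.00222). Irf9, the DNA-binding partner of STAT2, had 127, 104 and 115 CPM in KO mTEChi, against 72, 65 and 73.3 CPM in WT mTEChi (log2 fold change 0.72 ± 0.11, adjusted p = 6.14e-05). Every KO library was above every WT library for both. Stat2 was at 64.2, 56.3 and 63.6 CPM in KO mTEChi, against 46, 55.1 and 44.6 CPM in WT mTEChi (log2 fold change 0.33 ± 0.12, adjusted p = 0.0442). Its libraries did not overlap, but the call was lost under RLE scaling (0.0859), in DESeq2 (0.087), in limma-voom with a pool block (0.0998), without KO mTEChi pools 4 (0.103) and 6 (0.0931), and without WT mTEChi pools 1 (0.102) and 3 (0.158). For Stat2 adjusted p ran from 0.0217 to 0.158 over 11 alternatives. Irf1, the factor most tied to type II interferon, was at 488, 407 and 388 CPM in KO mTEChi, against 461, 429 and 388 CPM in WT mTEChi (log2 fold change 0.01 ± 0.14, adjusted p = 0.977), with overlapping libraries.

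Among the 4 sensors, Ddx58 and Ifih1 were higher in KO mTEChi. Ddx58 (RIG-I; chromosome 4, 40203777 to 40239825 on GRCm38.p6) had 65.9, 60.7 and 63.7 CPM in KO mTEChi, against 34.9, 34.5 and 29 CPM in WT mTEChi (log2 fold change 0.96 ± 0.11, adjusted p = 1.84e-06). Ifih1, which encodes the long-RNA sensor MDA5, had 103, 98 and 86 CPM in KO mTEChi, against 54, 57.5 and 56.3 CPM in WT mTEChi (log2 fold change 0.77 ± 0.12, adjusted p = 5.64e-05). The KO libraries of both genes were all above the WT ones. The log2 fold changes of Dhx58 and Zbp1, neither of which passed the test, were 0.13 and -0.06.

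The interferon-inducible GTPases, large enzymes that attack the vacuoles and particles of intracellular pathogens, moved most evenly: 7 of 8 were higher in KO mTEChi. Gbp2, a guanylate-binding protein, had 77.4, 72.8 and 67.4 CPM in KO mTEChi, against 35.2, 34.2 and 28.9 CPM in WT mTEChi (log2 fold change 1.15 ± 0.14, adjusted p = 4.29e-06). Gbp7 of the same gene cluster had 69.9, 62.3 and 59.9 CPM in KO mTEChi, against 37.1, 34.3 and 31.5 CPM in WT mTEChi (log2 fold change 0.91 ± 0.14, adjusted p = 8.98e-05). For both genes the KO mTEChi libraries lay within the range of the 6 mTEClo libraries and the WT mTEChi libraries below it. Irgm1, an immunity-related GTPase that regulates the others, had 178, 159 and 158 CPM in KO mTEChi, against 101, 109 and 97.6 CPM in WT mTEChi (log2 fold change 0.69 ± 0.11, adjusted p = 6.29e-05). Iigp1, an effector of that family, had 186, 201 and 185 CPM in KO mTEChi, against 137, 142 and 128 CPM in WT mTEChi (log2 fold change 0.49 ± 0.10, adjusted p = 0.000918). Gbp3 had 58.1, 67.6 and 63 CPM in KO mTEChi, against 52.6, 45.6 and 43 CPM in WT mTEChi (log2 fold change 0.43 ± 0.14, adjusted p = 0.0188). Neither gene's libraries overlapped. The call of Gbp3 was lost without KO mTEChi pool 5 (0.0605), and without WT mTEChi pools 2 (0.0557) and 3 (0.0837). For Gbp3 adjusted p ran from 0.00848 to 0.0837 over 11 alternatives. Igtp rose by 0.50 and Mx1 by 0.69 (log2), while Mx2, at 12.1 CPM or less in each mTEChi library, had -0.34 ± 0.27 (adjusted p = 0.333). Mx1 and Mx2 are annotated by RefSeq as transcribed pseudogenes on GRCm38.p6, the C57BL/6 assembly.

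The promoters of 5 members are shown because these genes moved together in mTEChi or, for Isg15, stood apart from that pattern. Only windows that hold the response element were shown, so its presence in these 5 is by choice. Dtx3l, Irf7, Irf9, Oasl1, Ifi44, Epsti1 and Lgals3bp, also higher in KO mTEChi, held no match in their windows. Each line gives the 140 bases before the start used for the gene on GRCm38.p6, read 5′ to 3′ on its strand. Matches to the response element are in capitals. The start used was the RefSeq gene start, except in Gbp3, where the RefSeq gene start at 142560016 lies inside the stretch. The element was searched as GAAA, any 2 bases and GAAA again, on both strands, and overlapping matches were merged.
Gbp7, chr3:142530196-142530335, plus strand: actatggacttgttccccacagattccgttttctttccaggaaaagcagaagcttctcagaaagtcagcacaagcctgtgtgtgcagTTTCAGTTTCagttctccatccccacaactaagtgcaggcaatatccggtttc
Gbp3, chr3:142559904-142560043, plus strand: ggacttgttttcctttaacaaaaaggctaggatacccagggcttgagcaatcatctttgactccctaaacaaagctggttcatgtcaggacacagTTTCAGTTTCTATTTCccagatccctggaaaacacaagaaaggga
Irgm1, chr11:48871421-48871560, minus strand: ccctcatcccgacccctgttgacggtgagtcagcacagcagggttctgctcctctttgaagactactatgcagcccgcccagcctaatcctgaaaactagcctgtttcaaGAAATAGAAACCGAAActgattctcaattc
Gbp2, chr3:142620523-142620662, plus strand: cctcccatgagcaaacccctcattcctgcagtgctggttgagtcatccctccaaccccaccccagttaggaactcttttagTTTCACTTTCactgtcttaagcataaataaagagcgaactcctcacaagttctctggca
Isg15, chr4:156200819-156200958, minus strand: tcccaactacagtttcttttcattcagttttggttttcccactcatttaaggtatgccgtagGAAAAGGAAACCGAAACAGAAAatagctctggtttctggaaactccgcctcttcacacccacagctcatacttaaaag
Gbp7 and Gbp2 each held 1 match in the stretch shown, Gbp3 and Irgm1 each held 2 that overlap, and Isg15 held 3 that overlap. The first base of the match lay 53 bases before the start used in Gbp7, 45 in Gbp3, 59 in Gbp2, 30 in Irgm1 and 78 in Isg15. A second window of Gbp3, from 142560106 to 142560405, held no match.

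RefSeq windows from 250 bases before to 50 after a start were held for 35 of the 46 members, as 41 windows. A window's start could differ from the RefSeq gene start, as for Gbp3. The response element was found in 19 of the 41 windows (46.3%), that is in 18 of the 35 genes (51.4%), and in 3.44% of the 32851 windows of all genes. The gamma-activated element, searched as TTCNNNGAA, whose reverse complement is the same pattern, was found in 10 of the 41 windows (24.4%) and in 8.3% of all windows. A match is a run of letters and not a measured binding site. Of the 18 genes with the element, 11 were higher and 1 lower in KO mTEChi (median log2 fold change 0.48), and of the 17 without it in their windows 7 were higher and 1 lower (0.23). In mTEClo 11 of the 18 were lower in KO, and of the 17 without it 3 were higher and 7 lower. The difference between genes with and without the element was not tested.

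Dtx3l, Parp9 and Parp14, whose products modify proteins with ubiquitin or ADP-ribose, lie close together on chromosome 16. Dtx3l, an E3 ligase, had 127, 114 and 145 CPM in KO mTEChi, against 54.8, 56.7 and 46.8 CPM in WT mTEChi (log2 fold change 1.29 ± 0.13, adjusted p = 9.53e-07). Parp9, its binding partner, had 136, 144 and 118 CPM in KO mTEChi, against 74.8, 74.8 and 64.8 CPM in WT mTEChi (log2 fold change 0.90 ± 0.11, adjusted p = 7.68e-06). All KO libraries of both were above all WT libraries. The genes overlap on the genome (Dtx3l at 35926515 to 35939027 and Parp9 at 35938470 to 35972621), and because the kits used do not record strand, reads in the overlap could belong to either. Parp14 had 31.7, 37.4 and 32.8 CPM in KO mTEChi, against 27.7, 28 and 25.4 CPM in WT mTEChi (0.34 ± 0.15, adjusted p = 0.0883), without overlap of libraries but not past the threshold.

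Of 12 effectors that act on RNA or nucleotides, Ifit3, Oas1a and Oasl1 were higher in KO mTEChi (log2 fold changes 0.96, 1.02 and 0.44) and Rsad2 was lower. Rsad2 encodes viperin, which makes a chain-terminating nucleotide. It had 20.7, 18.3 and 21.1 CPM in KO mTEChi, against 39.9, 30.1 and 27.4 CPM in WT mTEChi (log2 fold change -0.68 ± 0.21, adjusted p = 0.0148). The call was lost in limma-voom with a pool block (0.0613), without KO mTEChi pool 5 (0.0665), and without WT mTEChi pool 1 (0.0855). For Rsad2 adjusted p ran from 0.00433 to 0.0855 over 11 alternatives. Oas1a and the neighbouring Ifit and Oas family members have close paralogs, so how reads were shared among them is uncertain.

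The ISG15 system, a ubiquitin-like conjugation pathway, did not follow the GTPases in mTEChi: 2 of its 4 genes were lower in KO and the other 2 were not called. Ube2l6, the enzyme that carries ISG15 to its targets, had 195, 142 and 153 CPM in KO mTEChi, against 229, 239 and 212 CPM in WT mTEChi (log2 fold change -0.48 ± 0.13, adjusted p = 0.00915). The call was lost without KO mTEChi pool 5 (0.067). For Ube2l6 adjusted p ran from 0.00144 to 0.067 over 11 alternatives. Usp18 had 527, 496 and 437 CPM in KO mTEChi, against 642, 669 and 601 CPM in WT mTEChi (log2 fold change -0.39 ± 0.11, adjusted p = 0.011). This call was lost without KO mTEChi pool 6 (0.0774), and without WT mTEChi pool 2 (0.0569). For Usp18 adjusted p ran from 0.00068 to 0.0774 over 11 alternatives. For both, every KO library was below every WT library. Isg15 was at 24.4, 46.1 and 70.5 CPM in KO mTEChi, against 86.1, 54.4 and 61.8 CPM in WT mTEChi (-0.51 ± 0.25, adjusted p = 0.12), and Herc6, the main ISG15 ligase in mouse, had a log2 fold change of -0.01. The KO mTEChi library of pool 4 was the lowest of its group for Isg15, for Bst2 (33.3, 87.8 and 101 CPM in KO mTEChi, against 98, 62.4 and 85.8 CPM in WT mTEChi) and for Ifitm3 (1409.9, 2861 and 2932 CPM in KO mTEChi, against 1742, 1733 and 1769 CPM in WT mTEChi), which have the 3 shortest gene lengths of the list, 756, 769 and 648 bases. These 3 were singled out after their values were seen.

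Of the remaining 9 induced genes, 5 were higher in KO mTEChi (Lgals3bp, Rtp4, Trim30a, Ifi44 and Epsti1, with log2 fold changes of 0.96, 0.63, 0.60, 0.57 and 0.57). The other 4 (Ifi27, Ifi35, Xaf1 and Sp100) ran from -0.23 to 0.12 and did not pass the test.

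**Figure D4:**
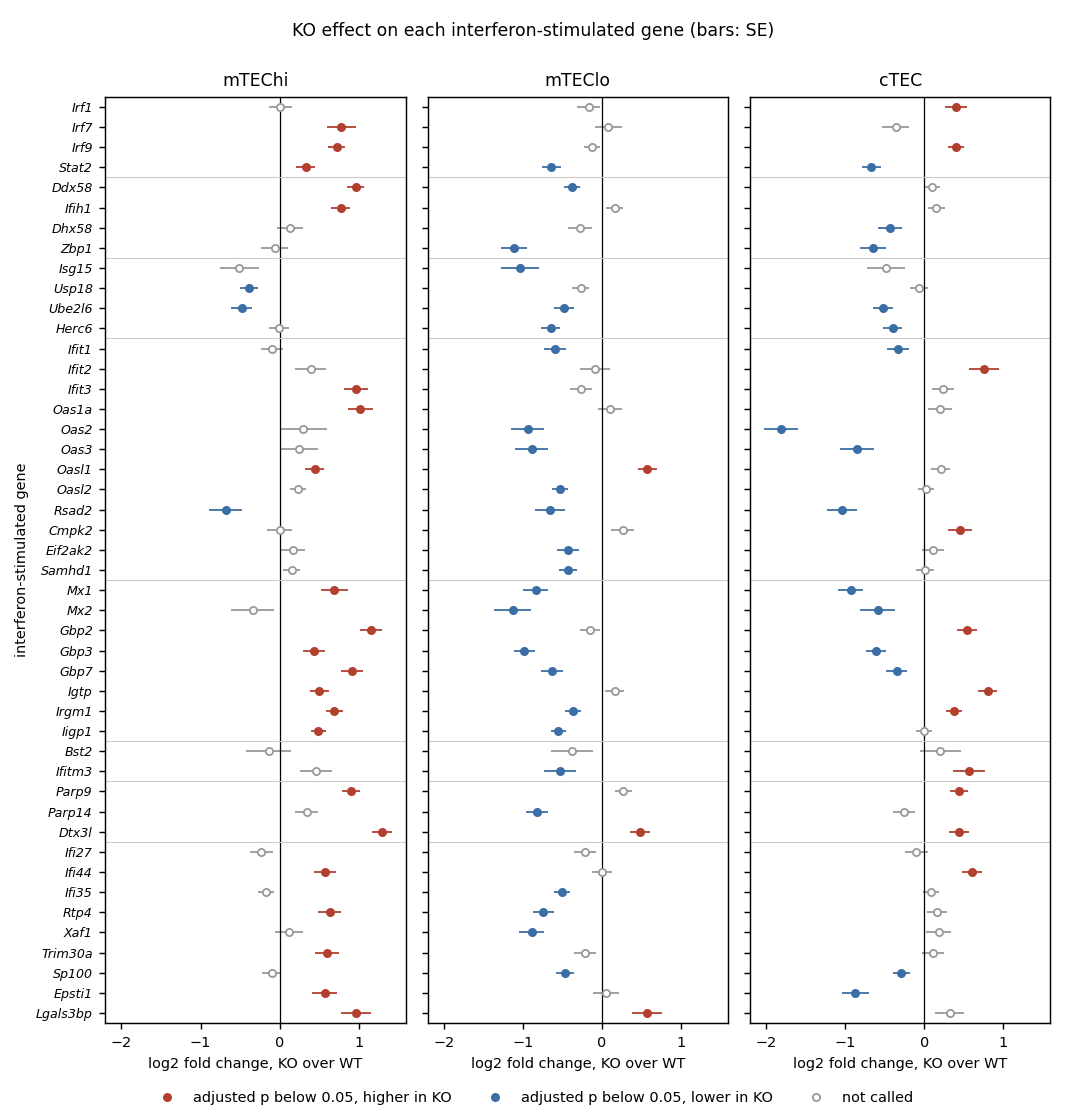
Log2 fold change of KO over WT for each of the 46 genes in mTEChi, mTEClo and cTEC (points; bars show the SE), with filled red points for genes higher and filled blue points for genes lower at an adjusted p below 0.05. In mTEChi 22 points are red and 3 blue, in mTEClo 3 are red and 25 blue, and in cTEC 11 are red and 15 blue.

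In mTEClo the balance was the opposite. There 25 of the 46 genes were lower and 3 were higher in KO, where 15.8% of all genes were lower and 18.9% higher. The median log2 fold change was -0.41 for the 46 and 0.01 for all genes. All KO libraries lay below all WT libraries for 26 genes, above them for 5, and overlapped for 15. This separation, too, was not counted over all genes.

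The 5 lower genes with the smallest adjusted p came from 4 roles. Gbp3 had 80.5, 67.4 and 79 CPM in KO mTEClo, against 170.4, 146 and 133 CPM in WT mTEClo (log2 fold change -0.98 ± 0.13, adjusted p = 7.52e-06). Zbp1, a sensor of left-handed nucleic acid that can trigger cell death, had 59.2, 63.7 and 50.5 CPM in KO mTEClo, against 122, 127 and 126 CPM in WT mTEClo (log2 fold change -1.11 ± 0.16, adjusted p = 2.42e-05). The KO mTEClo values of Zbp1 lay within the range of the 6 mTEChi libraries. Parp14, an ADP-ribosyltransferase, had 77.3, 65.6 and 73.3 CPM in KO mTEClo, against 103, 141 and 138 CPM in WT mTEClo (log2 fold change -0.82 ± 0.14, adjusted p = 0.000109). Rtp4 had 216, 239.6 and 240.1 CPM in KO mTEClo, against 381, 405 and 380.4 CPM in WT mTEClo (log2 fold change -0.74 ± 0.13, adjusted p = 0.000202). Iigp1 had 293, 289 and 284 CPM in KO mTEClo, against 422, 427 and 417 CPM in WT mTEClo (log2 fold change -0.55 ± 0.10, adjusted p = 0.000227). In each of these 5 genes the highest KO mTEClo library was below the lowest WT mTEClo library.

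By role in mTEClo, 6 of 8 GTPases fell (Mx1, Mx2, Gbp3, Gbp7, Irgm1 and Iigp1), as did 7 of 12 RNA effectors (Ifit1, Oas2, Oas3, Oasl2, Rsad2, Eif2ak2 and Samhd1). Of the ISG15 system, Isg15, Ube2l6 and Herc6 fell. The log2 fold change was -1.04 for Isg15, -1.13 for Mx2 and -0.94 for Oas2. Stat2 was the 1 transcription factor that fell, with 189, 149 and 159.6 CPM in KO mTEClo, against 234, 263 and 279 CPM in WT mTEClo (log2 fold change -0.64 ± 0.12, adjusted p = 0.00026). Irf7 had 0.08 ± 0.17 (adjusted p = 0.768), Irf9 -0.13 ± 0.10 (adjusted p = 0.361) and Irf1 -0.17 ± 0.14 (adjusted p = 0.36), and none of the 3 passed the test. Of the sensors, Ddx58 fell by 0.38 on the log2 scale and Ifih1 had 0.16.

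Several of the smaller decreases in mTEClo did not hold in every alternative. The call of Rsad2 (-0.66 ± 0.19, adjusted p = 0.0109) was lost without KO mTEClo pool 5 (0.0665). For Rsad2 adjusted p ran from 0.000791 to 0.0665 over 11 alternatives. That of Eif2ak2, the kinase PKR that halts translation (-0.43 ± 0.14, adjusted p = 0.0198), was lost without KO mTEClo pools 4 (0.0529) and 6 (0.0707), and without WT mTEClo pool 2 (0.114). For Eif2ak2 adjusted p ran from 0.00235 to 0.114 over 11 alternatives. The call of Samhd1, which hydrolyses deoxynucleotides (-0.43 ± 0.11, adjusted p = 0.00573), was lost without WT mTEClo pool 2 (0.0613). For Samhd1 adjusted p ran from 0.000384 to 0.0613 over 11 alternatives. Ube2l6 (-0.48 ± 0.13, adjusted p = 0.0081) lost its call without WT mTEClo pool 2 (0.0531). For Ube2l6 adjusted p ran from 0.00103 to 0.0531 over 11 alternatives. Ifitm3 was at 2702, 3653 and 3329.5 CPM in KO mTEClo, against 3835, 5220.1 and 4949.5 CPM in WT mTEClo (-0.53 ± 0.20, adjusted p = 0.0494). Its call was lost without KO mTEClo pools 4 (0.186), 5 (0.0507) and 6 (0.0929), and without WT mTEClo pools 2 (0.185) and 3 (0.133). For Ifitm3 adjusted p ran from 0.00651 to 0.186 over 11 alternatives.

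The 3 genes higher in KO mTEClo were also higher in KO mTEChi. Oasl1 had 103, 86.4 and 88 CPM in KO mTEClo, against 63.8, 65.8 and 56.7 CPM in WT mTEClo (log2 fold change 0.57 ± 0.12, adjusted p = 0.000861). Dtx3l had 139.5, 110.3 and 123 CPM in KO mTEClo, against 100.2, 85.3 and 82.4 CPM in WT mTEClo (log2 fold change 0.48 ± 0.13, adjusted p = 0.0066). Lgals3bp, a secreted glycoprotein that binds galectins, had 202, 149.8 and 150.4 CPM in KO mTEClo, against 144, 107 and 85.2 CPM in WT mTEClo (log2 fold change 0.57 ± 0.19, adjusted p = 0.0218), without overlap of libraries. The call of Lgals3bp was lost without KO mTEClo pool 4 (0.124), and without WT mTEClo pools 2 (0.0659) and 3 (0.132). For Lgals3bp adjusted p ran from 0.00364 to 0.132 over 11 alternatives.

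Read over both medullary fractions, 8 genes were higher in KO mTEChi and lower in KO mTEClo: Stat2, Mx1, Ddx58, Rtp4, Gbp3, Gbp7, Irgm1 and Iigp1. A further 11 were higher in KO mTEChi and not called in mTEClo, and 15 were lower in KO mTEClo and not called in mTEChi. Rsad2 and Ube2l6 were lower in both. Ifit2, Irf1, Dhx58, Bst2, Ifi27 and Cmpk2 were called in neither. How many of all genes tested show each of these joint patterns was not counted.

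The difference of the KO effect between the fractions was tested directly. In edgeR the effect in mTEChi minus that in mTEClo was called above 0 for 25 of the 46 genes and below 0 for 0. Of all genes, 6.72% and 6.78% were so called. By sign alone, called or not, 41 of the 46 were positive and 5 negative. At an unadjusted p below 0.05, 0 genes were below 0, and DESeq2 and limma-voom each called 0. The median difference was 0.67 for the 46 and -0.07 for all genes. The 25 included 6 of 8 GTPases, all 3 genes of the PARP and DTX3L group, 3 of 4 sensors, 6 of 12 RNA effectors, and Irf9 and Stat2. Their count was 34 when only the 4 mTEC groups were fitted.

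Gbp7 had the largest difference of the 46, and Ddx58 the one with the smallest adjusted p. Gbp7 was at 68.4, 49.3 and 53.2 CPM in KO mTEClo, against 92.3, 86.6 and 85.4 CPM in WT mTEClo (-0.63). In mTEChi, as given above, its log2 fold change was 0.91, so the difference was 1.54 ± 0.20 (adjusted p = 2.93e-05). Gbp3 differed by 1.41 ± 0.19 (adjusted p = 3.81e-05). Ddx58 was at 159, 141 and 151 CPM in KO mTEClo, against 192, 199 and 195 CPM in WT mTEClo (-0.38 ± 0.10, adjusted p = 0.00463), a difference of 1.33 ± 0.14 (adjusted p = 3.86e-06). Irgm1 was at 272, 248 and 256 CPM in KO mTEClo, against 366, 349 and 289.6 CPM in WT mTEClo (-0.37 ± 0.10, adjusted p = 0.00781), a difference of 1.06 ± 0.15 (adjusted p = 5.96e-05). The difference for Iigp1 was 1.04 ± 0.14 (adjusted p = 4.95e-05). In all 5 genes the KO libraries of the 2 fractions were closer to each other than the WT libraries were. For Gbp7, KO mTEChi at 69.9, 62.3 and 59.9 CPM overlapped KO mTEClo, whereas WT mTEChi lay far below WT mTEClo.

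The calls of this difference for Oas2, Oas3, Samhd1, Ifitm3 and Herc6 were the ones lost in some alternatives. For Oas2 (1.24 ± 0.36, adjusted p = 0.0271) it was lost in limma-voom with a pool block (0.0915), without KO mTEChi pool 6 (0.0761), without WT mTEChi pool 3 (0.111), without KO mTEClo pool 5 (0.063), and without WT mTEClo pool 3 (0.0516). For Oas2 adjusted p ran from 0.00549 to 0.111 over 18 alternatives. For Oas3 (1.15 ± 0.31, adjusted p = 0.0154) it was lost without WT mTEChi pool 3 (0.0585). For Oas3 adjusted p ran from 0.000606 to 0.0585 over 18 alternatives. For Samhd1 (0.58 ± 0.16, adjusted p = 0.0187) it was lost without KO mTEChi pool 4 (0.0585), without KO mTEClo pool 5 (0.0573), and without WT mTEClo pool 2 (0.0682). For Samhd1 adjusted p ran from 0.00578 to 0.0682 over 18 alternatives. For Ifitm3 (0.99 ± 0.29, adjusted p = 0.0264) it was lost without KO mTEChi pools 5 (0.0768) and 6 (0.0845), without WT mTEChi pools 1 (0.0538), 2 (0.0525) and 3 (0.0533), without KO mTEClo pool 4 (0.0647), and without WT mTEClo pools 2 (0.0726) and 3 (0.0555). For Ifitm3 adjusted p ran from 0.000602 to 0.0845 over 18 alternatives. For Herc6 (0.64 ± 0.18, adjusted p = 0.0217) it was lost without KO mTEChi pools 5 (0.0549) and 6 (0.0584), without WT mTEChi pools 2 (0.0706) and 3 (0.0601), and without WT mTEClo pool 2 (0.0627). For Herc6 adjusted p ran from 0.00409 to 0.0706 over 18 alternatives.

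In cTEC the set was split: 11 of the 46 genes were higher and 15 were lower in KO, beside 22.3% and 26.7% of all genes. The count of higher genes is near the background share, and that of lower genes is little above it. With a library left out, the 15 lower genes were 10 to 15. Whether the lower count exceeds the background share was not tested. The median log2 fold change of the 46 was 0.05, and that of all genes -0.02. KO libraries lay above all WT libraries for 13 genes, below them for 13, and overlapped for 20. The same count over all genes was not made.

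The genes that rose in KO cTEC included 3 GTPases, both factors Irf1 and Irf9, and Ifit2. Igtp, another immunity-related GTPase, had 229, 175 and 185 CPM in KO cTEC, against 114, 125 and 98.6 CPM in WT cTEC (log2 fold change 0.80 ± 0.12, adjusted p = 1.71e-05). Ifi44 had 307, 288 and 271 CPM in KO cTEC, against 173, 235 and 164 CPM in WT cTEC (log2 fold change 0.60 ± 0.13, adjusted p = 0.000783). Ifit2, which binds viral RNA, had 77.2, 54.3 and 55.4 CPM in KO cTEC, against 36.5, 38.9 and 35.4 CPM in WT cTEC (log2 fold change 0.75 ± 0.19, adjusted p = 0.00246). The KO libraries of these 3 were all above the WT ones. Gbp2 had 149, 114 and 124 CPM in KO cTEC, against 85.9, 92.5 and 88.7 CPM in WT cTEC (log2 fold change 0.54 ± 0.13, adjusted p = 0.00162). Parp9 had 161, 153 and 179.7 CPM in KO cTEC, against 117, 125 and 122 CPM in WT cTEC (log2 fold change 0.44 ± 0.11, adjusted p = 0.00228). Irf9 rose by 0.40 and Irf1 was at 618, 857 and 643 CPM in KO cTEC, against 581, 503 and 517 CPM in WT cTEC (0.40 ± 0.14, adjusted p = 0.018). The call of Irf1 was lost with only the compared groups fitted (0.0739), without KO cTEC pool 5 (0.159), and without WT cTEC pool 2 (0.0562). For Irf1 adjusted p ran from 0.011 to 0.159 over 11 alternatives. Ifitm3 was at 4941, 4816 and 4633 CPM in KO cTEC, against 2572, 3621 and 3575 CPM in WT cTEC (0.56 ± 0.20, adjusted p = 0.0291). This call was lost under RLE scaling (0.0529), without KO cTEC pools 4 (0.0708) and 5 (0.0613), and without WT cTEC pool 1 (0.13). For Ifitm3 adjusted p ran from 0.0172 to 0.13 over 11 alternatives.

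The genes that fell in KO cTEC were led by Oas2, an oligoadenylate synthetase that activates RNase L. Oas2 had 23, 23 and 32.7 CPM in KO cTEC, against 109, 66.6 and 102 CPM in WT cTEC (log2 fold change -1.81 ± 0.22, adjusted p = 1.04e-06), the largest fold change of the 46 in any KO comparison. Stat2 had 167, 152 and 179.7 CPM in KO cTEC, against 258, 245 and 292 CPM in WT cTEC (log2 fold change -0.67 ± 0.12, adjusted p = 8.57e-05). Both were lower in every KO library. Mx1 had 22.6, 20.3 and 22.9 CPM in KO cTEC, against 32.5, 37.8 and 54.6 CPM in WT cTEC (log2 fold change -0.93 ± 0.16, adjusted p = 8.37e-05). Rsad2 had 35.8, 25.8 and 28.2 CPM in KO cTEC, against 51.4, 50.9 and 82 CPM in WT cTEC (log2 fold change -1.04 ± 0.19, adjusted p = 0.000154). Epsti1 had 9.37, 9.71 and 9.73 CPM in KO cTEC, against 16.4, 12.6 and 23.7 CPM in WT cTEC (log2 fold change -0.87 ± 0.17, adjusted p = 0.000298). The libraries of these 3 did not overlap. Gbp3 fell by 0.61, Zbp1 by 0.65 and Oas3 by 0.85 on the log2 scale. The smaller decreases of Gbp7, Ifit1, Sp100, Mx2, Dhx58 and Herc6 each lost their call without at least 1 library.

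For Gbp7 in cTEC (-0.35 ± 0.13, adjusted p = 0.0327) the call was lost without KO cTEC pools 5 (0.135) and 6 (0.154), and without WT cTEC pool 3 (0.101). For Gbp7 adjusted p ran from 0.00402 to 0.154 over 11 alternatives. For Ifit1 (-0.33 ± 0.14, adjusted p = 0.0481) it was lost with only the compared groups fitted (0.0896), without KO cTEC pools 5 (0.295) and 6 (0.0866), and without WT cTEC pools 1 (0.112) and 3 (0.112). For Ifit1 adjusted p ran from 0.00608 to 0.295 over 11 alternatives. For Sp100, a component of nuclear bodies (-0.29 ± 0.11, adjusted p = 0.0368), it was lost with only the compared groups fitted (0.0695), without KO cTEC pools 5 (0.209) and 6 (0.0761), and without WT cTEC pools 2 (0.0774) and 3 (0.128). For Sp100 adjusted p ran from 0.00415 to 0.209 over 11 alternatives. For Mx2 (-0.59 ± 0.22, adjusted p = 0.0318) it was lost without KO cTEC pools 4 (0.0575), 5 (0.0947) and 6 (0.0631), and without WT cTEC pool 3 (0.292). For Mx2 adjusted p ran from 0.0094 to 0.292 over 11 alternatives. For Dhx58, which encodes the sensor LGP2 (-0.43 ± 0.15, adjusted p = 0.0195), it was lost without KO cTEC pools 5 (0.0596) and 6 (0.0856), and without WT cTEC pool 3 (0.109). For Dhx58 adjusted p ran from 0.00474 to 0.109 over 11 alternatives. For Herc6 (-0.40 ± 0.12, adjusted p = 0.0103) it was lost without WT cTEC pool 2 (0.0628). For Herc6 adjusted p ran from 0.000709 to 0.0628 over 11 alternatives. Among the increases, Cmpk2, a nucleotide kinase that neighbours Rsad2 (0.45 ± 0.15, adjusted p = 0.0163), lost its call with only the compared groups fitted (0.0603), without KO cTEC pool 4 (0.0541), and without WT cTEC pools 1 (0.0577) and 3 (0.0753). For Cmpk2 adjusted p ran from 0.00199 to 0.0753 over 11 alternatives.

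In edgeR the KO effect in mTEChi minus that in cTEC was called above 0 for 17 of the 46 genes and below 0 for 0. Of all genes, 18.3% and 13.2% were so called. The count called below 0 was also 0 at an unadjusted p below 0.05, in DESeq2 and in limma-voom. By sign alone, called or not, 34 of the 46 were positive and 12 negative. The median was 0.37, and the largest differences were those of Oas2 (2.11 ± 0.36, adjusted p = 0.000178), Mx1 (1.61 ± 0.23, adjusted p = 3.04e-05) and Epsti1 (1.44 ± 0.23, adjusted p = 0.000107). The count called below 0 was 1 without the WT cTEC library of pool 2. The KO effect in mTEClo minus that in cTEC was called below 0 for 17 genes and above 0 for 2, Oas2 and Epsti1. Of all genes, 9.54% and 16.4% were so called (median of the 46 -0.35). By sign alone, called or not, 34 of the 46 were negative and 12 positive. The count called below 0 was 11 without the KO mTEClo library of pool 5. The count called above 0 ran from 1 to 3 over the libraries left out, and was 1 without any 1 of the KO mTEClo libraries of pools 4 and 6, the 3 WT mTEClo libraries, the KO cTEC libraries of pools 4 and 5, and the WT cTEC libraries of pools 1 and 3.

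Upstream of these genes, transcripts of Ifnb1, of the Ifna family and of Ifnl2 and Ifnl3 were read mostly in mTEChi. Ifnb1, the gene of interferon beta, had 11, 20 and 10 reads in KO mTEChi, against 15, 27 and 40 in WT mTEChi, and 2 reads or fewer in every other library. Scaled to depth this was 1.31, 1.52 and 1.47 CPM in KO mTEChi, against 4.15, 3.21 and 5.42 CPM in WT mTEChi, so all KO libraries were below all WT libraries. The log2 fold change was -1.56 ± 0.66 (adjusted p = 0.073), which missed the threshold. It passed with only the compared groups fitted (0.00196), and in limma-voom with a pool block (0.0097). For Ifnb1 adjusted p ran from 0.00196 to 0.247 over 11 alternatives. The 14 genes of the Ifna family, whose near-identical copies cannot be told apart, summed to 0.837, 1.52 and 0.736 CPM in KO mTEChi, against 3.88, 1.9 and 3.53 CPM in WT mTEChi. They had 0 reads in all mTEClo libraries, in the KO cTEC libraries and in 1 WT cTEC library.

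The type III genes Ifnl2 and Ifnl3, themselves near-identical, summed to 14.5, 18.5 and 16.3 CPM in KO mTEChi, against 30.5, 21.9 and 29.1 CPM in WT mTEChi. Every KO library was below every WT library, and neither gene passed the test, with log2 fold changes of -0.76 ± 0.47 for Ifnl2 (adjusted p = 0.21) and -0.66 ± 0.49 for Ifnl3 (adjusted p = 0.31). Ifnl2 did pass with only the compared groups fitted (0.0119). For Ifnl2 adjusted p ran from 0.0119 to 0.418 over 11 alternatives. Ifnl3 passed with only the compared groups fitted (0.0312). For Ifnl3 adjusted p ran from 0.0312 to 0.562 over 11 alternatives. In cTEC Ifnl2 had 0, 0 and 1 reads in KO, against 7, 16 and 0 in WT, and was called lower (adjusted p = 0.00567). That call rests on 2 WT libraries and was lost in limma-voom with the pool as a block (adjusted p = 0.132) and without the WT cTEC library of pool 2 (0.056), adjusted p over its alternatives running from 0.000109 to 0.132. Ifng, the type II interferon gene, had 3.7, 3.19 and 2.94 CPM in KO mTEChi, against 3.6, 2.49 and 2.3 CPM in WT mTEChi (0.25 ± 0.67, adjusted p = 0.787).

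**Figure D5:**
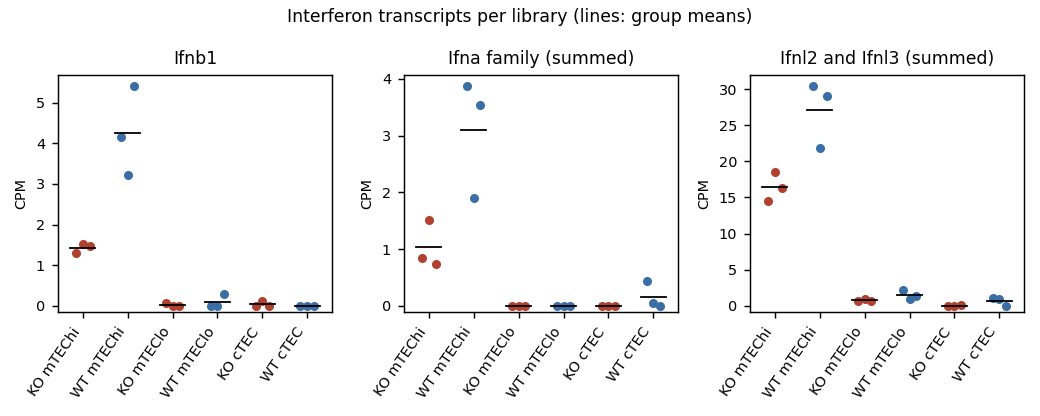
Level in CPM (y axis) of Ifnb1, of the summed Ifna family (14 genes) and of Ifnl2 and Ifnl3 summed, in each library (points) of the 6 groups, with lines at group means. The mTEChi groups hold nearly all of the signal, and for Ifnb1 KO mTEChi sits at 1.31 to 1.52 CPM, against 3.21 to 5.42 CPM in WT mTEChi.

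Of 21 ligand genes in the files, 4 (Ifnb1, Ifnl2, Ifnl3 and Ifng) passed the filter on low counts. Their counts in mTEChi carried them through it, so no count of calls between subsets is given for them. Ifnk and Ifnz, which did not pass, had 6 reads or fewer in every library. For the lists of pathway genes and markers that follow, the shares of all genes tested were those given above: 17.1% higher and 19.3% lower in KO mTEChi, 18.9% and 15.8% in KO mTEClo, and 22.3% and 26.7% in KO cTEC. Of the 6 receptor genes, 4 were higher in KO mTEChi, 2 were higher and 2 lower in KO mTEClo, and 3 were higher in KO cTEC. Ifnlr1, the receptor chain specific to type III interferon, had 4.06, 4.71 and 3.97 CPM in KO mTEChi, against 2.49, 2.49 and 3.12 CPM in WT mTEChi (0.65 ± 0.22, adjusted p = 0.0236), and 18.1, 17.3 and 18.7 CPM in KO mTEClo, against 25.7, 35.2 and 33.3 CPM in WT mTEClo (-0.80 ± 0.15, adjusted p = 0.000329). In cTEC it had 0.17 ± 0.15 (adjusted p = 0.333). The mTEChi call, on few reads, was lost in DESeq2 (0.0759), with only the compared groups fitted (0.0542), in limma-voom with a pool block (0.149), without KO mTEChi pool 5 (0.0852), and without WT mTEChi pools 1 (0.0505) and 2 (0.0913). For Ifnlr1 adjusted p ran from 0.0298 to 0.149 over 11 alternatives. Ifngr2, a chain of the type II receptor, had 0.44 ± 0.10 (adjusted p = 0.00232) in mTEClo, and Il10rb, the chain that partners Ifnlr1, had 0.42 ± 0.11 (adjusted p = 0.00284) in cTEC.

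Of 14 genes of the JAK-STAT relay and its inhibitors, 7 were higher and 1 lower in KO mTEChi, 6 higher and 4 lower in KO mTEClo, and 1 higher and 6 lower in KO cTEC. Jak2, a kinase of the type II receptor, had 152, 167 and 160.5 CPM in KO mTEChi, against 91.6, 90.5 and 86.2 CPM in WT mTEChi (0.84 ± 0.09, adjusted p = 1.05e-06), and 0.82 ± 0.09 (adjusted p = 5.82e-07) in mTEClo. Stat3 had -0.65 ± 0.12 (adjusted p = 0.000329) in mTEClo and -0.87 ± 0.12 (adjusted p = 7.22e-06) in cTEC. Nlrc5, the activator of MHC class I genes, had -0.81 ± 0.14 (adjusted p = 0.000137) in mTEClo and -0.98 ± 0.14 (adjusted p = 8.97e-06) in cTEC, against 0.13 ± 0.14 (adjusted p = 0.477) in mTEChi.

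Of 19 tested genes of the nucleic acid sensing relay, 4 were higher and 1 lower in KO mTEChi, 2 higher and 6 lower in KO mTEClo, and 4 higher and 5 lower in KO cTEC. The higher calls in mTEChi and both counts in cTEC are near the shares of all genes. Tlr3, the endosomal receptor for double-stranded RNA, had 39.3, 42.9 and 41.2 CPM in KO mTEChi, against 11.6, 8.08 and 10.2 CPM in WT mTEChi (2.08 ± 0.20, adjusted p = 3.58e-07), and in mTEClo it had 0.85 ± 0.18 (adjusted p = 0.000855). Sting1, the adaptor for cytosolic DNA, had 27.8, 27.8 and 22.5 CPM in KO cTEC, against 78.6, 75.4 and 66.1 CPM in WT cTEC (-1.50 ± 0.13, adjusted p = 1.89e-08), and in mTEClo -0.67 ± 0.13 (adjusted p = 0.000404). Ikbke, a kinase that activates IRF3 and IRF7, had 9.26, 6.08 and 6.17 CPM in KO mTEClo, against 22.1, 30.3 and 29.4 CPM in WT mTEClo (-1.93 ± 0.20, adjusted p = 4.82e-07), and in cTEC -1.79 ± 0.20 (adjusted p = 4.14e-07). All 3 changes were larger than the spread between libraries.

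Markers of other cell states moved with these results, and their part in them was not tested. Counts of a few calls in these short lists, such as 2 of 7 or 2 of 10, are near the shares of all genes given above. In KO mTEChi, 4 of 6 immature mTEC markers were higher, and the 6 summed to 1779 to 2108 CPM, against 816 to 958 CPM in WT mTEChi. In KO mTEClo 2 of the 6 were lower, with sums of 3378 to 3779 CPM, against 4808 to 5120.3 CPM in WT mTEClo. Of the 9 cTEC markers, 7 were higher in KO in each of the 3 subsets, and Cd83 was lower in KO mTEChi. Of 7 mature mTEC markers, 2 were lower in KO mTEChi, and 2 were higher and 4 lower in KO mTEClo. Of 10 immediate early and heat shock genes, which respond within minutes to the handling of cells, 3 were lower in KO mTEChi, 6 in KO mTEClo and 6 in KO cTEC. Their sums were 11055 to 11886 CPM in KO mTEClo, against 17577 to 21902 CPM in WT mTEClo.

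Of 16 tested macrophage and dendritic cell markers, 3 were higher and 8 lower in KO mTEChi, 4 higher and 1 lower in KO mTEClo, and 2 higher and 5 lower in KO cTEC. In mTEChi all 17 on the list summed to 997 to 1175 CPM in KO, against 1683 to 1756 CPM in WT. Most of that was Lyz2. The pan-leukocyte marker Ptprc was at 15.9, 12.8 and 13.1 CPM in KO mTEChi, against 8.86, 7.84 and 8.68 CPM in WT mTEChi, and the macrophage marker Adgre1 was at 5.38, 4.48 and 2.8 CPM in KO mTEChi, against 11.6, 18.2 and 18.2 CPM in WT mTEChi. Of 12 thymocyte markers, 4 were lower in KO mTEChi, 2 were higher in KO mTEClo and 8 were higher in KO cTEC, with sums of 273 to 439 CPM in KO cTEC, against 61.1 to 153 CPM in WT cTEC. Fibroblast and mural cell markers were 3 higher and 4 lower of 10 in KO mTEChi, 3 and 3 in KO mTEClo, and 2 and 6 in KO cTEC. In mTEChi these 10 summed to 555 to 651 CPM in KO, against 303 to 322 CPM in WT. Most of the KO sum was Acta2 and Dcn, at means of 251 and 237 CPM in KO mTEChi, against 74.2 and 67.8 CPM in WT mTEChi. By mean, Lum was also higher in KO mTEChi, and every other marker of the list was lower.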

How the data were processed

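RNA-seq of sorted thymic epithelial cells was read from 18 count files. Per the labels' protocols, cDNA was made with the SMART-Seq v4 kit, libraries with Nextera XT, and 75 base paired ends were sequenced; these kits keep no strand and no molecular identifiers. The deposited values were raw read counts for each gene, made by the authors with featureCounts and mm10 according to the submitters' processing notes; the aligner and multimapping settings are not given in the sources used here. The single files were identical to the table of the whole series.

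Tests used edgeR 4.0.16 (R 4.3.3): filterByExpr (minimum count 10) left 19364 of 27179 genes, TMM scaling, glmQLFit and glmQLFTest over 6 group means and all 18 libraries (12 residual degrees of freedom), Benjamini-Hochberg adjustment over all genes tested, threshold 0.05. The fit was checked on simulated counts. The 12 contrasts were KO against WT in 3 subsets, 6 of subsets within a genotype and 3 interactions. A p-value was judged against the spread between libraries of a group, each from a different pool. The main fit held no pool term. Its subset contrasts and interactions thus did not use the pairing of libraries by pool, which only the blocked alternatives did. Alternatives were RLE scaling, DESeq2 1.42.0, no filter, only the compared groups, limma-voom (limma 3.58.1) with the pool as a random block, a fixed pool block, and leaving out each library. Same-numbered libraries share a mouse pool, per the labels, and their deviations correlated at -0.001 to 0.239.

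The 46 members, their roles, and the pathway and marker lists were chosen with earlier results of these data known. Values per library are given for the 5 members with the smallest adjusted p in each direction of each KO comparison, the 5 of the mTEChi and mTEClo interaction, the 3 in each direction of mTEChi against mTEClo in WT, the 4 transcription factors and the member highest per kilobase, and others where stated; pathway genes were up to 3 a list with the smallest adjusted p. Positions, biotypes and promoter windows are from RefSeq on GRCm38.p6; 15 of the 46 genes overlap another annotated gene, and paralogs (Ifit, Oas, Gbp, Igtp, Iigp1, Trim30a) may share reads.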

Additional observations from a re-analysis of the deposited data

Results flagged for a closer look

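A result was set aside here when the KO effect on a gene given with its values differed between a pair of subsets at an adjusted p below 0.05 in edgeR's quasi-likelihood test of the difference itself. Values are log2 differences of the KO effect, 3 libraries a group, and no explanation was tested. The effect in mTEChi minus that in mTEClo was 1.31 for Gbp2, 1.41 for Gbp3, 1.04 for Iigp1, 1.53 for Mx1, 1.54 for Gbp7 and 1.06 for Irgm1 among the GTPases. In the PARP and DTX3L group it was 0.81 for Dtx3l, 0.63 for Parp9 and 1.16 for Parp14. Among the transcription factors it was 0.97 for Stat2 and 0.85 for Irf9. Among the sensors it was 1.33 for Ddx58, 0.61 for Ifih1 and 1.05 for Zbp1. Among the RNA effectors it was 1.24 for Oas2. For the membrane protein gene it was 0.99 for Ifitm3. Among the other induced genes it was 1.38 for Rtp4.

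The effect in mTEChi minus that in cTEC was 0.62 for Gbp2, 1.03 for Gbp3, 0.49 for Iigp1, 1.61 for Mx1 and 1.26 for Gbp7 among the GTPases. In the PARP and DTX3L group it was 0.85 for Dtx3l, 0.46 for Parp9 and 0.59 for Parp14. Among the transcription factors it was 1.00 for Stat2 and 1.14 for Irf7. Among the sensors it was 0.85 for Ddx58 and 0.62 for Ifih1. Among the RNA effectors it was 2.11 for Oas2. Among the other induced genes it was 1.44 for Epsti1.

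The effect in mTEClo minus that in cTEC was -0.69 for Gbp2, -0.55 for Iigp1, -0.64 for Igtp and -0.74 for Irgm1 among the GTPases. In the PARP and DTX3L group it was -0.56 for Parp14. Among the transcription factors it was -0.57 for Irf1 and -0.53 for Irf9. Among the sensors it was -0.48 for Ddx58. Among the RNA effectors it was -0.84 for Ifit2 and 0.87 for Oas2. For the membrane protein gene it was -1.09 for Ifitm3. Among the other induced genes it was -0.91 for Rtp4, -0.60 for Ifi44 and 0.92 for Epsti1. Over the alternatives, for the members named by the rule, this difference lost a call 35 times and kept its side of the threshold 467 times. The difference of mTEChi and mTEClo lost a call 13 times, and that of mTEChi and cTEC 9 times. Of these differences, lost calls are listed by gene only for that of mTEChi and mTEClo.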

How the results depend on the processing

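For the members named by the rule, no called value changed sign under any alternative run. Of their results, 166 kept their side of the threshold in DESeq2, 7 gained and 1 lost a call. With RLE scaling these were 170, 2 and 2, with no filter 168, 6 and 0, and from fits to the compared groups alone 160, 10 and 4. Over all fits that left out 1 library, 1443 kept their side, 22 gained and 83 lost a call. In limma-voom with the pool as a random replicate block, 168 kept their side, 3 gained and 3 lost; with a fixed block, 86 kept their side and 4 gained.

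Counts of members that moved by over 1.5 times were these. WT mTEChi over WT cTEC had 5 higher, and 3 with no filter. WT mTEClo under WT cTEC had 2 lower, 4 with RLE scaling, and 5 each with DESeq2, with no filter, with the fixed pool block and with limma-voom and its block, and 1 to 4 with a library left out; its 10 higher were 6 to 11. With a library left out, the 3 lower in KO mTEChi were 1 to 3, the 8 higher in KO mTEChi over KO mTEClo were 5 to 8, and the 4 higher in KO mTEClo over KO cTEC were 2 to 6. For the differences of the KO effect, mTEChi minus cTEC had 0 to 1 called below 0, and mTEClo minus cTEC had 1 to 3 called above 0 and 11 to 17 called below 0. The blocked fits changed no other count by over 1.5 times.

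RLE scaling moved the median of all genes by at most 0.101 (log2, mTEChi against cTEC in KO). Depth limits the ligand values: Ifnb1 had 40 reads or fewer in every library, and whether it was called in mTEChi depended on the fit.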
